A study of Homo sapiens and Mus musculus with 12 samples.

Results

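The genes described here make, take up, sense and export cholesterol and fatty acids in natural killer (NK) cells that had lost EHMT2 or been treated with an inhibitor of it. EHMT2 (G9a) is a histone methyltransferase that places the repressive mark H3K9me2. The members were chosen by symbol: 40 human genes, each matched to its mouse gene, with SCD matched to both Scd1 and Scd2. All 40 human symbols were among the 18304 genes of the NK92MI table and all 41 mouse symbols among the 22021 genes of the mouse table. RNA-seq counts were available for 6 mouse and 6 human libraries. The mouse libraries were made from NK cells sorted from the spleens of C57BL/6J mice aged 8 to 12 weeks. In the KO mice (3 libraries) Ehmt2 fl/fl was deleted by Ncr1-iCre, a Cre driven by the gene of the receptor NKp46 that NK cells and some other innate lymphocytes express. The WT mice (3 libraries) carried the same floxed alleles, and a control with Cre alone was not analysed here. The labels do not say whether each mouse library came from a separate animal. The titles and the study name EHMT2 as the deleted gene, whereas the genotype field of the KO samples reads Ezh2-KO; the titles were followed. The human libraries came from NK92MI, a single human NK lymphoma line that makes its own IL-2, treated with BIX-01294 (BIX, 3 libraries), an inhibitor of EHMT2 and of the related enzyme EHMT1, or with the solvent DMSO (3 libraries). The functional assays of the study used 0.25 µM BIX-01294 for 5 days; the dose behind the RNA-seq libraries was not given separately in the sources used here. The labels do not say whether libraries of a group came from separate cultures, so that p-values in NK92MI measure the spread between these libraries, which may be technical.

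Cells build cholesterol from acetyl-CoA through mevalonate and squalene, and fatty acids from acetyl-CoA by elongation and desaturation. When sterols in the endoplasmic reticulum are low, SCAP escorts the SREBP transcription factors (encoded by SREBF1 and SREBF2) to the Golgi, where they are cleaved to their active form and switch on synthesis and uptake genes. When sterols are high, INSIG1 and INSIG2 hold SCAP back, and oxidised sterols activate the liver X receptors (NR1H3, LXRα; NR1H2, LXRβ), which switch on sterol efflux through ABCA1 and ABCG1 and, through MYLIP, the breakdown of lipoprotein receptors. Activated lymphocytes, NK cells among them, draw on this pathway for membrane growth and energy metabolism.

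The human promoters of 3 called genes are shown, of which SREBF2 and IDI1 were higher with BIX and MYLIP was lower. SREBF2 was chosen because its promoter holds the sterol regulatory element searched. IDI1 and MYLIP were chosen by adjusted p among called members without it, by the rule given below. Whether a run holds that element thus follows from the choice. The runs show where exact matches to 1 form of the sterol regulatory element and to the NF-Y box lie. SREBF2 encodes the activator of cholesterol genes, IDI1 an enzyme of the mevalonate pathway and MYLIP a target of LXR. Each run gives the 250 bases before a RefSeq transcription start (GRCh38.p14), 5′ to 3′ on the gene's strand, for SREBF2 at chr22:41832855-41833104 (plus strand), for IDI1 at chr10:1049120-1049369 (minus strand, 1 of 3 starts listed) and for MYLIP at chr6:16128836-16129085 (plus strand). No exon of a protein-coding gene is annotated inside them. Capitals mark matches, on either strand, to the sterol regulatory element TCACNCCAC and to the NF-Y box CCAAT, which here lies on the opposite strand and is read as its reverse complement.
SREBF2: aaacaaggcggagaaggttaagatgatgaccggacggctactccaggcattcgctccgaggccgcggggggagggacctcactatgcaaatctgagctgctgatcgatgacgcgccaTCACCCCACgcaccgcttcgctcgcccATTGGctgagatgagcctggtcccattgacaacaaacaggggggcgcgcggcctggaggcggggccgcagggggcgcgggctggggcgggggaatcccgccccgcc
IDI1: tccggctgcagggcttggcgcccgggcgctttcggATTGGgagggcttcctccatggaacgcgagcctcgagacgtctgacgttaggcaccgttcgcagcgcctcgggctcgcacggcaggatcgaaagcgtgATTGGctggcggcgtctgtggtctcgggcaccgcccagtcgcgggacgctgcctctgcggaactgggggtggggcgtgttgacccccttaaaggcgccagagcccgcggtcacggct
MYLIP: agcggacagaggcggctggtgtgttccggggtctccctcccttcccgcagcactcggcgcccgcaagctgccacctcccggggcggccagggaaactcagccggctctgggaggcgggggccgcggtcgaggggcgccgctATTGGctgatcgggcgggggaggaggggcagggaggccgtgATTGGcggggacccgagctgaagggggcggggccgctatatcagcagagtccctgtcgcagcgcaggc
The SREBF2 run holds the sterol regulatory element at -133 to -125 and an inverted NF-Y box at -106 to -102, counted from the transcription start. The IDI1 run holds inverted NF-Y boxes at -215 to -211 and at -117 to -113, and the MYLIP run holds them at -109 to -105 and at -68 to -64. The sterol regulatory element was not found in these exact letters in the last 2 runs. Other forms of it and elements read by LXR were not searched, so the runs do not show that such sites are absent. Of the 40 members, 35 had a promoter in the RefSeq table, and TCACNCCAC stood in 1 of the 35, SREBF2, against 1.09% of the 27305 genes with a promoter. CCAAT stood in 24 of the 35, against 37.0% of all genes with a promoter: in 9 of 12 members higher with BIX, 5 of 6 lower and 10 of 15 that did not pass the test (the other 2 were not tested). The E-box CACGTG, searched likewise, stood in 4 of the 35 members, against 7.73% of all genes. The GC box GGGCGG, which is not capitalised, stood in 34 of the 35, against 46.2%. The 27305 genes include many not tested in NK92MI, so these shares do not set the members beside expressed genes alone. A gene with several starts counted if any of its windows matched (the GC box stood in 42.6% of single promoters). These matches describe letters in a window of that length and say nothing of binding.

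Total counts lay between 25891680 and 37438868 in the mouse libraries and between 16579469 and 17165446 in the NK92MI libraries, and 13189 mouse and 12727 human genes had enough counts to be tested. Ehmt2 lay at 275, 284 and 285 CPM (counts per gene scaled by library size and TMM) in WT replicates 1 to 3 and at 171, 143 and 137 CPM in KO replicates 1 to 3, counted over the whole gene. The KO libraries were below all WT libraries and kept reads of the gene (log2 fold change -0.91 ± 0.10, standard error of the fit, n = 3 per group, edgeR adjusted p = 0.0162). EHMT2 lay at 57.1, 61.6 and 54.3 CPM in the DMSO libraries a to c and at 40.4, 39.3 and 35.8 CPM in BIX replicates 1 to 3 (-0.58 ± 0.08, edgeR adjusted p = 1.01e-04). Of 12 NK markers, 11 were in the mouse table and had counts in each library, summing to 5404 to 9199 CPM in WT and 10296 to 12096 CPM in KO. The list includes Prf1, Il2rb and Tbx21, whose mRNA the study reports as raised in KO NK cells by RT-qPCR. The sum is therefore not a measure of NK cell content alone. Markers of red pulp macrophages summed to 2119 to 8787 CPM in WT and 956 to 1844 CPM in KO, and those of B cells to 491 to 1371 CPM in WT and 91.1 to 453 CPM in KO, so that the sorted cells were not free of either and the KO libraries held less RNA of both. Erythroid markers summed to 209 to 344 CPM in WT and 94.4 to 128 CPM in KO, with all 6 called lower, and dendritic cell markers to 338 to 556 CPM in WT and 141 to 267 CPM in KO, with all 6 below 0 on the log2 fold change scale and 2 called lower. T cell markers summed to 131 to 199 CPM in WT and 87.4 to 170.3 CPM in KO, with 1 of 6 called higher. In bulk libraries, fewer cells of a type and less RNA per cell cannot be told apart. In NK92MI all 12 NK markers were present (5991 to 6454 CPM with DMSO, 7779 to 9715 CPM with BIX). Of these, 7 were called higher and 3 lower, against 18.4% of all genes in each direction. The lower ones were TBX21 (-0.46), EOMES (-0.17) and IL2RB (-0.16). GZMA had a mean of 1724 CPM with DMSO and 3249 CPM with BIX, so the sum does not stand for each marker. CD3E, a T cell receptor gene, was present at 486, 505 and 488 CPM with DMSO and 549, 516 and 591 CPM with BIX.

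The comparison of BIX with DMSO asks which genes change when the enzyme is inhibited in a human NK line. Of 17 cholesterol synthesis genes tested, 7 were higher with BIX and 3 lower, and of 5 SREBP control genes SREBF2, INSIG1 and INSIG2 were higher and SCAP lower. NPC1 and NPC2, which carry cholesterol out of the lysosome, were higher, and the LXRα gene and its target MYLIP were lower. Of the 38 members tested, 14 were higher and 7 lower (edgeR adjusted p under 0.05), which is 55.3% against 36.9% of all genes tested (18.4% higher, 18.4% lower). The median log2 fold change of the 38 was 0.12, against -0.01 for all genes. In 16 members every BIX library was above every DMSO library and in 7 every one was below (24.1% and 23.9% of all genes). At the thresholds of the study (absolute log2 fold change above 0.5 together with an adjusted p below 0.01) 6 members were called, against 11.7% of all genes, and at an adjusted p under 0.05 DESeq2 called 21, against 32.7% of all genes (16.8% higher, 15.9% lower). At an unadjusted p under 0.05 edgeR had 17 members higher and 7 lower, against 22.9% and 23.2% of all genes. CYP51A1 (2 to 9 counts a library) and ABCA1 (0 to 6 counts) were too low to be tested, and 74.1% of the exon bases of CYP51A1 are shared with other annotated genes, so its count is uncertain.

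**Figure D1:**
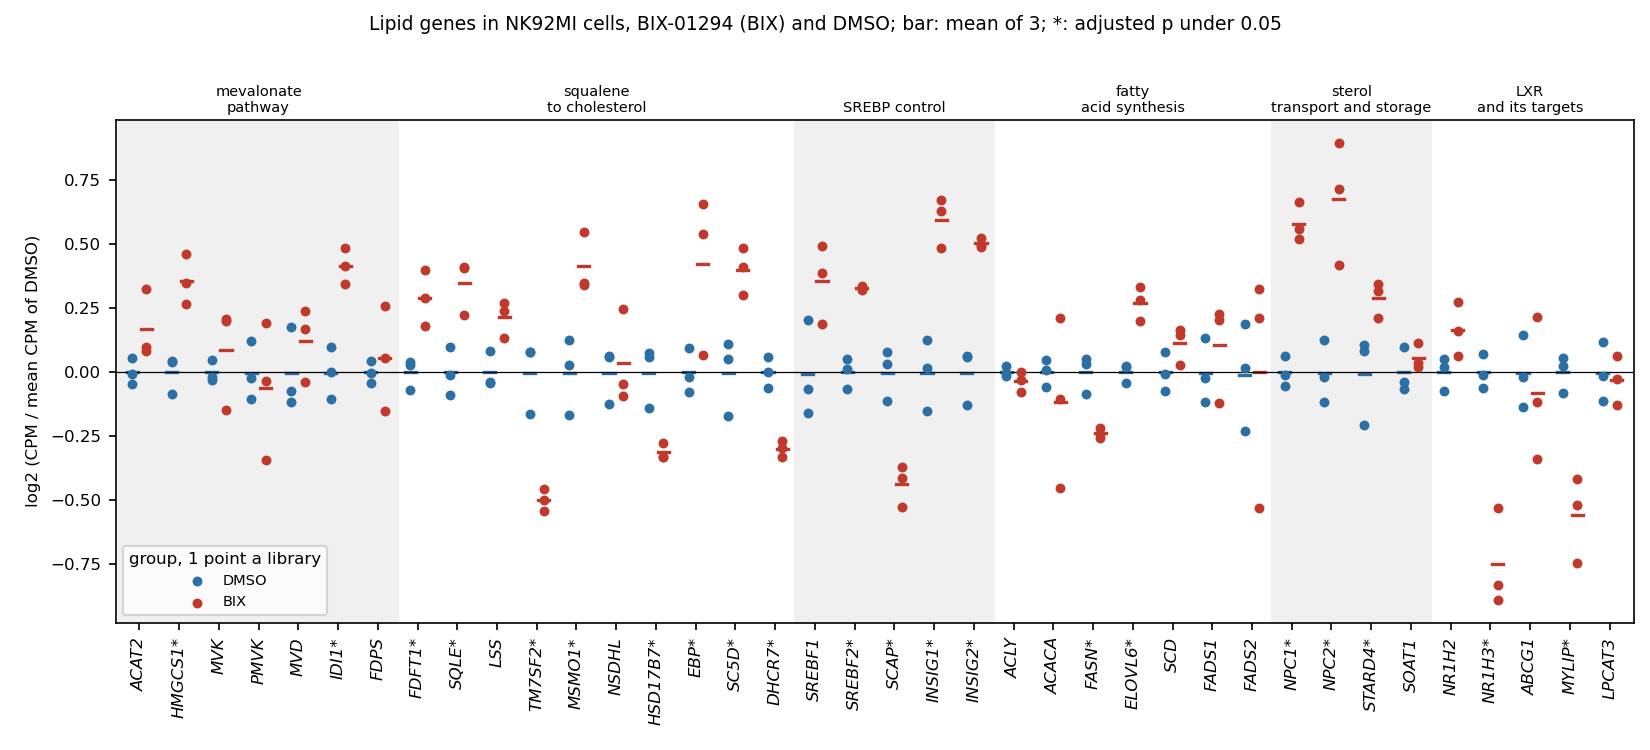
Each point is a library of NK92MI cells, plotted for the 38 members tested as the log2 of its CPM over the mean CPM of the 3 DMSO libraries; blue is DMSO, red is BIX, bars are group means and an asterisk marks an edgeR adjusted p under 0.05. INSIG1, INSIG2, NPC1 and NPC2 stand above the DMSO libraries, and SCAP, TM7SF2, NR1H3 and MYLIP below them.

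In the mevalonate pathway, which turns acetyl-CoA into the isoprenoid units of sterols, 2 of 7 members were called (28.6%, below the 36.9% of all genes). Both rose, and none fell at an unadjusted edgeR p under 0.05 or with DESeq2 either (median log2 fold change 0.13). HMGCS1, which makes HMG-CoA, lay at 238, 218 and 237 CPM with DMSO and 318, 293 and 277 CPM with BIX (0.36 ± 0.07, edgeR adjusted p = 0.00111). IDI1, the isomerase of isopentenyl diphosphate whose promoter run is printed above, lay at 131, 121 and 139.9 CPM with DMSO and 183, 166 and 174 CPM with BIX (0.41 ± 0.07, edgeR adjusted p = 4.32e-04). For both genes all BIX libraries exceeded all DMSO libraries, although other annotated genes share 37.7% of the exon bases of HMGCS1 on the opposite strand and 14.97% of those of IDI1, and the strand setting of the counting is not stated. ACAT2, which condenses acetyl-CoA, did not pass, at 87.4, 83.7 and 81.4 CPM with DMSO and 90.05, 89.1 and 105 CPM with BIX (0.17 ± 0.08, edgeR adjusted p = 0.0932). The other 4, MVK, PMVK, MVD and FDPS, had log2 fold changes from -0.05 to 0.13 and did not pass.

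From squalene to cholesterol, 5 of 10 tested members rose and 3 fell (80.0%, against 36.9% of all genes, median 0.25). FDFT1, squalene synthase, lay at 167, 166 and 155 CPM with DMSO and 199, 184 and 215 CPM with BIX (0.29 ± 0.07, edgeR adjusted p = 0.00469). SQLE, the squalene epoxidase and a rate-limiting step of the pathway, lay at 75.1, 66.01 and 69.6 CPM and 92.9, 82.01 and 93.3 CPM (0.35 ± 0.08, edgeR adjusted p = 0.00285). MSMO1, a C4-methylsterol oxidase, lay at 85.4, 69.8 and 79.8 CPM and 114, 99.7 and 99.1 CPM (0.41 ± 0.08, edgeR adjusted p = 0.00176). These 3 enzymes were higher in each BIX library than in any DMSO library. SC5D, a sterol desaturase near the end of the pathway, behaved likewise, at 40.6, 33.4 and 38.9 CPM with DMSO and 52.7, 49.97 and 46.3 CPM with BIX (0.40 ± 0.09, edgeR adjusted p = 0.00347). EBP, the sterol isomerase, lay at 76.1, 85.7 and 79.3 CPM with DMSO and 117, 84.2 and 127 CPM with BIX (0.44 ± 0.12, edgeR adjusted p = 0.00881). Here BIX replicate 2 fell within the DMSO range, and 36.4% of the exon bases of EBP are shared with another gene on the same strand.

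The 3 enzymes of the same stretch that fell were TM7SF2, HSD17B7 and DHCR7. TM7SF2, a sterol C14-reductase, lay at 8.21, 9.71 and 9.70 CPM with DMSO and 6.51, 6.70 and 6.32 CPM with BIX (-0.50 ± 0.14, edgeR adjusted p = 0.0117). DHCR7, which makes cholesterol from 7-dehydrocholesterol, lay at 54.9, 52.7 and 50.5 CPM and 41.9, 43.7 and 42.9 CPM (-0.30 ± 0.07, edgeR adjusted p = 0.00608). HSD17B7, a sterol ketoreductase, lay at 25.2, 21.7 and 24.9 CPM and 19.8, 19.05 and 19.01 CPM (-0.31 ± 0.10, edgeR adjusted p = 0.0217). In all 3 the groups did not overlap, but the call of HSD17B7 was lost without DMSO library a (edgeR adjusted p = 0.0948), DMSO library c (0.0847) or BIX replicate 1 (0.0574). LSS (0.21, edgeR adjusted p = 0.0647) and NSDHL (0.04) did not pass. Summed over the 17 tested genes of both stretches, the level was 1202, 1158 and 1178 CPM in the DMSO libraries and 1470, 1324 and 1456 CPM in BIX replicates 1 to 3. The sum was thus above the DMSO range in each BIX library, with replicate 2 the lowest of the treated libraries.

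Among the genes that control SREBP, 3 of 5 rose and 1 fell (80.0%, against 36.9% of all genes, median 0.36). SREBF2, which encodes the activator of the cholesterol genes and whose promoter run is printed above with its sterol regulatory element, lay at 217, 223 and 205 CPM with DMSO and 272, 269.8 and 269 CPM with BIX (0.33 ± 0.06, edgeR adjusted p = 8.56e-04). INSIG1, which retains SCAP in the endoplasmic reticulum, lay at 183, 150.5 and 169 CPM and 266, 234 and 258 CPM (0.60 ± 0.08, edgeR adjusted p = 5.94e-05). INSIG2, its paralog, lay at 33.3, 29.2 and 33.4 CPM and 44.8, 45.97 and 44.99 CPM (0.50 ± 0.08, edgeR adjusted p = 3.80e-04). SREBF2, INSIG1 and INSIG2 were thus above the DMSO range in each BIX library, and the 3 BIX values of SREBF2 lay within 269 to 272 CPM. SCAP, the escort protein, moved the other way, at 77.00, 79.5 and 69.8 CPM with DMSO and 52.4, 58.4 and 56.7 CPM with BIX (-0.43 ± 0.08, edgeR adjusted p = 6.21e-04). SREBF1, the gene of the fatty acid activator, lay at 6.05, 7.78 and 6.45 CPM and 8.83, 7.70 and 9.51 CPM, so that the groups overlapped and the test was not passed (0.36 ± 0.15, edgeR adjusted p = 0.0765). SREBF1 passed once BIX replicate 2 was left out (0.44, edgeR adjusted p = 0.032).

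Of 7 fatty acid synthesis genes 1 was higher and 1 lower (28.6%, below the 36.9% of all genes, median 0.05). ELOVL6, which elongates palmitate, lay at 95.9, 91.7 and 96.03 CPM with DMSO and 119, 115 and 108 CPM with BIX (0.27 ± 0.06, edgeR adjusted p = 0.00490). FASN, the fatty acid synthase, lay at 259, 262 and 239 CPM and 214, 218 and 212 CPM (-0.24 ± 0.06, edgeR adjusted p = 0.00800). The groups of both genes were apart, in opposite directions. SCD, the stearoyl-CoA desaturase, did not pass, at 297, 267 and 280.3 CPM with DMSO and 316, 312 and 287 CPM with BIX (0.11 ± 0.07, edgeR adjusted p = 0.196). FADS2, a desaturase of polyunsaturated fatty acids, was low and overlapped, at 3.90, 4.62 and 5.21 CPM and 3.17, 5.29 and 5.73 CPM (0.05 ± 0.22). ACLY, ACACA and FADS1 had log2 fold changes from -0.09 to 0.11 and did not pass. Per kilobase of exon, ACLY, which supplies acetyl-CoA to both pathways, had the highest DMSO level of the members, at 93.3 CPM per kb, followed by SCD (53.7), INSIG1 (45.9) and EBP (45.5).

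Sterol transport and storage genes rose in 3 of 4 cases (75.0%, against 36.9% of all genes called in either direction, median 0.44). NPC1, the lysosomal membrane protein that hands cholesterol out of the lysosome, lay at 80.2, 73.8 and 76.2 CPM with DMSO and 113, 122 and 109.8 CPM with BIX (0.58 ± 0.07, edgeR adjusted p = 2.31e-05). NPC2, its soluble partner, lay at 33.1, 36.5 and 30.9 CPM and 55.04, 44.8 and 62.3 CPM and had the largest positive fold change of the members (0.69 ± 0.11, edgeR adjusted p = 3.24e-04). STARD4, a cytosolic sterol carrier, lay at 147, 118 and 145 CPM and 173, 170.1 and 158 CPM (0.29 ± 0.08, edgeR adjusted p = 0.0127). All 3 had no overlap between groups; the call of STARD4 was lost without DMSO library b (edgeR adjusted p = 0.0615) or BIX replicate 1 (0.0617). SOAT1, which esterifies cholesterol for storage, did not pass (0.06 ± 0.07, edgeR adjusted p = 0.542).

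In the LXR group 2 of 5 tested genes fell with BIX and none rose, also at an unadjusted edgeR p under 0.05 or with DESeq2 (median -0.06). NR1H3, encoding LXRα, lay at 7.16, 6.90 and 7.57 CPM with DMSO and 4.99, 4.06 and 3.90 CPM with BIX (-0.74 ± 0.16, edgeR adjusted p = 0.00269). MYLIP, the LXR target that marks lipoprotein receptors for degradation and the last of the runs printed above, lay at 17.3, 19.1 and 18.6 CPM and 10.96, 13.8 and 12.8 CPM (-0.55 ± 0.11, edgeR adjusted p = 0.00196). Each BIX library was below each DMSO library for both. NR1H2, encoding LXRβ, was the more abundant receptor transcript per kilobase and did not pass, at 38.2, 39.1 and 35.9 CPM with DMSO and 42.1, 39.3 and 45.5 CPM with BIX (0.17 ± 0.08, edgeR adjusted p = 0.139). ABCG1, the sterol exporter (-0.06), and LPCAT3, which places polyunsaturated chains in phospholipids (-0.03), did not pass, and 66.0% of the exon bases of LPCAT3 lie under a gene on the opposite strand. Left without BIX replicate 2, NR1H2 reached an edgeR adjusted p of 0.0498. B cell and macrophage markers were low in this line, and their relation to NR1H3 was not tested. Of 8 macrophage markers 3 were in the table, and only 1, CSF1R, had enough counts to be tested. The 4 B cell markers in the table, mostly PAX5, summed to 13.4 to 14.4 CPM with DMSO and 24.2 to 26.3 CPM with BIX, and the macrophage markers to 2.05 to 3.49 CPM and 4.19 to 5.18 CPM.

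A wider list of genes of the same pathway, none of them members, had 10 of 31 higher and 5 lower (48.4%, against 36.9% of all genes). LPIN1, the phosphatidate phosphatase, lay at 213, 200.3 and 208 CPM with DMSO and 339.8, 362 and 319 CPM with BIX (0.72 ± 0.07, edgeR adjusted p = 2.57e-06). TMEM97, an NPC1-binding sterol-regulated protein, lay at 93.2, 93.1 and 100.4 CPM and 133, 129 and 133 CPM (0.46 ± 0.06, edgeR adjusted p = 8.64e-05). Both were above the DMSO range in all BIX libraries. Other higher genes were NCEH1 (0.41), ERG28 (0.38), ERLIN2 (0.28), LIPA (0.24), ERLIN1 (0.24), RNF139 (0.21) and PLTP, a phospholipid transfer protein and LXR target that had 4, 5 and 4 counts with DMSO and 27, 21 and 16 counts with BIX. RNF139 did not pass with DESeq2 (adjusted p = 0.0683) and lost its call on leaving out any library except BIX replicate 2, and ERLIN1, ERLIN2 and LIPA lost theirs on leaving out 1 of several libraries (highest edgeR adjusted p 0.0877, 0.0842 and 0.0789). GRAMD1A, which carries cholesterol from the plasma membrane to the endoplasmic reticulum, lay at 38.8, 43.3 and 38.8 CPM with DMSO and 21.6, 23.7 and 26.9 CPM with BIX (-0.74 ± 0.10, edgeR adjusted p = 6.24e-05). RXRA, the partner receptor of LXR, lay at 8.79, 10.1 and 8.40 CPM and 5.24, 6.11 and 5.49 CPM (-0.70 ± 0.15, edgeR adjusted p = 0.00210). Also lower were RXRB (-0.36), another partner receptor, and MBTPS1 (-0.25), the first protease that cleaves SREBP, whose call was lost without BIX replicate 1 (edgeR adjusted p = 0.0619).

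The comparison of KO with WT asks which genes change when NK cells lack Ehmt2 in the animal. Few members were called, and they were spread over several role groups. They were Elovl6, Scd2 and Fads2 of fatty acid synthesis, Srebf2, the LXR genes Nr1h3 and Mylip, and Acat2 alone of the 18 genes of cholesterol synthesis. Of 41 members tested, 4 were higher (Acat2, Elovl6, Scd2 and Mylip) and 3 lower (Srebf2, Fads2 and Nr1h3), which is 17.1% against 11.9% of all genes (4.44% higher, 7.43% lower). The median log2 fold change was -0.05, against 0.01 for all genes, and 20 members lay above 0 and 21 below. In 9 members all KO libraries were above all WT libraries and in 5 all were below (19.1% and 19.3% of all genes). At the thresholds of the study edgeR called no member and no gene of the table, its smallest adjusted p being 0.0116. With DESeq2 at those thresholds 4 members were called, against 10.8% of all genes. At an unadjusted p under 0.05 edgeR had 6 members higher and 6 lower, against 15.8% and 20% of all genes, and at an adjusted p under 0.05 DESeq2 called 8, against 22.2% of all genes (7.89% higher, 14.4% lower).

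**Figure D2:**
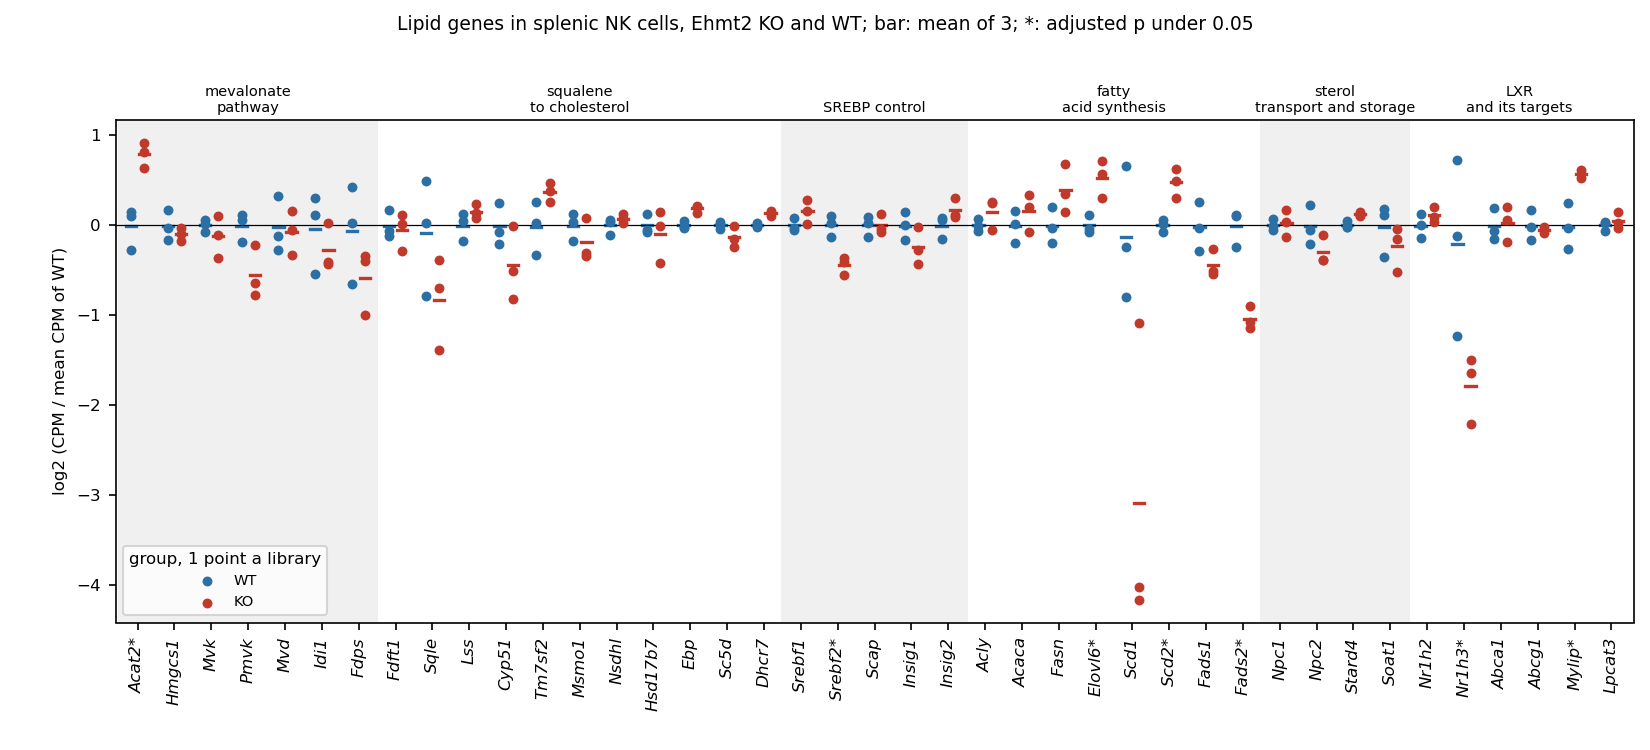
Each point is a library of splenic NK cells, plotted for the 41 mouse members as the log2 of its CPM over the mean CPM of the 3 WT libraries; blue is WT, red is KO, bars are group means and an asterisk marks an edgeR adjusted p under 0.05. Most members scatter around 0 in both groups, Fads2 and Nr1h3 stand below, and Scd1 spreads widest, from 31.3 CPM in KO replicate 1 to 3.72 CPM in KO replicate 2. On scaling to NK markers the members drawn above 0 fall below it.

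Without WT replicate 1, WT replicate 3, KO replicate 2 or KO replicate 3 none of the 7 passed (edgeR adjusted p from 0.0617 to 0.163), while their directions stayed. The loss was not particular to these genes, as the edgeR adjusted p of Ehmt2 itself rose to as much as 0.121 on leaving out a library. The share of all genes called was not computed for the fits with a library left out. Without WT replicate 2, the library with the fewest counts, 5 members were higher and 6 lower, and without KO replicate 1 there were 4 and 4. NK markers were higher in KO, and scaling the libraries to them moved the median of all genes to -0.82. Acat2 (-0.08), Elovl6 (-0.29), Scd2 (-0.35) and Mylip (-0.22) then came below 0, and 32 members were called lower. Some of these markers are genes that the study reports as raised by the deletion, so the scaling does not correct for NK cell content alone. The share of all genes called lower on that scaling was not computed. Relative to that median gene the 4 lay at 0.74, 0.53, 0.48 and 0.60, and Srebf2, Fads2 and Nr1h3 at -0.47, -1.09 and -1.88. Subtracting the median takes the scaling out again, so these values lie near the unscaled ones by construction and are no check on cell content.

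Fatty acid synthesis held 3 of the 7 calls (2 of 8 members higher, 1 lower, 37.5% against 11.9% of all genes, median 0.16). DESeq2 called 3 of the 8, against 22.2% of all genes. Elovl6 lay at 31.00, 35.3 and 31.8 CPM in WT replicates 1 to 3 and 40.3, 48.7 and 53.5 CPM in KO replicates 1 to 3 (0.54 ± 0.12, edgeR adjusted p = 0.0406). The WT libraries of Elovl6 had the order of the NK marker sums (5404, 9199 and 5654 CPM in WT replicates 1 to 3). Mylip had that order too and Scd2 was highest in WT replicate 2, whereas Acat2 was lowest there. The part of NK cell content in these rises was not tested. Scd2, a desaturase isoform, lay at 96.6, 99.6 and 91.03 CPM and 135, 148 and 118 CPM (0.48 ± 0.10, edgeR adjusted p = 0.0349). Fads2 lay at 13.8, 10.7 and 13.7 CPM and 6.04, 6.84 and 5.76 CPM, and had the smallest adjusted p of the mouse members (-1.04 ± 0.15, edgeR adjusted p = 0.0239). WT replicate 2, the WT library with the lowest macrophage marker sum (2119 CPM, against 8787 and 5226 CPM), was also the lowest of WT for Fads2, and the part of other cells in its fall was not tested. For these 3 genes WT and KO did not overlap. Fads1, the neighbouring desaturase gene, lay at 29.1, 19.97 and 23.8 CPM and 16.6, 17.02 and 20.2 CPM, where the highest KO library exceeded the lowest WT library (-0.44 ± 0.16, edgeR adjusted p = 0.0923). Fasn lay at 178, 235 and 201 CPM in WT and 227, 328 and 260.3 CPM in KO and did not pass (0.41 ± 0.16, edgeR adjusted p = 0.111). Acly and Acaca had log2 fold changes of 0.16 and 0.17 and did not pass.

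Scd1, the paralog of Scd2, had the largest difference of the members without passing, at 56.03, 38.2 and 105 CPM in WT and 31.3, 3.72 and 4.09 CPM in KO (-2.35 ± 0.83, edgeR adjusted p = 0.0899). KO replicates 2 and 3 were near 4 CPM, whereas KO replicate 1 was close to the lowest WT library. B cell markers followed the same libraries, with sums of 765, 491 and 1371 CPM in WT and 453, 107 and 91.1 CPM in KO, and so did 8 neutrophil markers, with 178, 62.8 and 648 CPM in WT and 70.6, 1.83 and 2.63 CPM in KO. All 7 B cell markers in the table had negative log2 fold changes (median -2.44) and none passed, and 3 of the 8 neutrophil markers were at 0 in KO replicate 2 and 2 in KO replicate 3. Their part in the Scd1 result was not tested. Without KO replicate 1 the log2 fold change of Scd1 was -4.09 (edgeR adjusted p = 0.0166), and it also passed with limma-voom (adjusted p = 0.0449). Reads shared between the similar Scd1 and Scd2 transcripts make both counts uncertain to a degree that the table does not show.

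**Figure D3:**
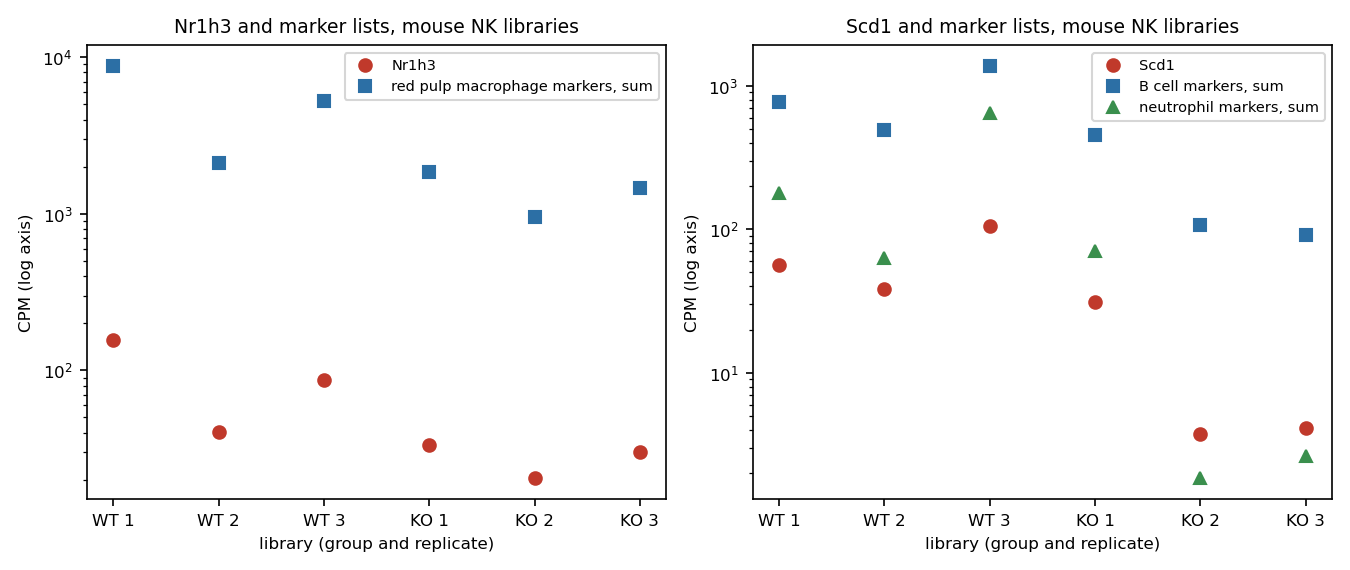
Each column is a mouse library and the y axis is CPM on a log scale; the left panel sets Nr1h3 beside the sum of 12 red pulp macrophage markers, the right panel Scd1 beside the sums of 7 B cell and 8 neutrophil markers. Nr1h3 is highest in WT replicates 1 and 3, where the macrophage sum is 8787 and 5226 CPM, and Scd1 is lowest in KO replicates 2 and 3, where the B cell sum is 107 and 91.1 CPM.

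Of 18 cholesterol synthesis genes tested in KO cells, 1 was higher, Acat2, and none lower (5.56%, against 11.9% of all genes). Their median was -0.09, with 6 above 0 and 12 below, and at an unadjusted edgeR p under 0.05 there were 2 higher and 1 lower (15.8% and 20% of all genes), while DESeq2 called 2 (22.2% of all genes). Acat2 lay at 7.45, 5.55 and 7.20 CPM in WT and 11.9, 12.7 and 10.5 CPM in KO without overlap (0.79 ± 0.16, edgeR adjusted p = 0.0349). Pmvk, phosphomevalonate kinase, was below the WT range in each KO library but did not pass, at 16.1, 13.5 and 16.6 CPM in WT and 13.2, 9.86 and 8.97 CPM in KO (-0.53 ± 0.17, edgeR adjusted p = 0.0751); DESeq2 called it (adjusted p = 0.0338). Sqle lay at 16.1, 6.67 and 11.7 CPM and 8.76, 7.06 and 4.39 CPM (-0.77 ± 0.35, edgeR adjusted p = 0.157). Cyp51, the lanosterol demethylase, lay at 26.2, 19.1 and 20.8 CPM and 21.97, 15.5 and 12.4 CPM (-0.41 ± 0.22, edgeR adjusted p = 0.217). Both overlapped between groups and did not pass. Ebp was above the WT range in each KO library by a small margin, at 46.2, 43.8 and 43.9 CPM and 51.5, 51.9 and 49.2 CPM (0.19 ± 0.08, edgeR adjusted p = 0.127). The summed level of the 18 genes was 354, 302 and 318 CPM in WT and 341, 318 and 292 CPM in KO, so that the groups overlapped.

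Several enzymes that passed with BIX in the human line were measured in the mouse cells without passing. Hmgcs1 lay at 46.5, 36.8 and 40.5 CPM in WT and 38.5, 40.5 and 36.6 CPM in KO (-0.10 ± 0.11). Idi1 lay at 7.36, 4.11 and 6.47 CPM and 6.09, 4.50 and 4.44 CPM (-0.26 ± 0.25). Fdft1 lay at 24.95, 21.3 and 20.5 CPM and 23.96, 22.5 and 18.2 CPM (-0.05 ± 0.14). These 3 overlapped between WT and KO. Msmo1 lay at 23.3, 18.9 and 21.97 CPM in WT and 22.7, 16.9 and 17.2 CPM in KO (-0.18 ± 0.15). Sc5d lay at 23.6, 24.9 and 24.6 CPM and 24.2, 21.95 and 20.6 CPM (-0.13 ± 0.10). Hsd17b7 lay at 3.83, 3.34 and 3.38 CPM and 3.51, 3.88 and 2.63 CPM (-0.08 ± 0.22). The groups of these 3 overlapped as well. Tm7sf2 lay at 4.83, 3.22 and 4.11 CPM in WT and 5.63, 4.85 and 5.29 CPM in KO (0.37 ± 0.20), and Dhcr7 at 28.9, 29.3 and 29.98 CPM and 31.5, 32.9 and 32.2 CPM (0.13 ± 0.08), both above the WT range in each KO library. The remaining members of these stretches, Mvk, Mvd, Fdps, Lss and Nsdhl, had log2 fold changes from -0.54 to 0.15; Fdps had only 22 to 45 counts a library and shares 26.7% of its exon bases with another gene.

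Of the SREBP control genes Srebf2 fell and the other 4 did not pass (20.0%, against 11.9% of all genes, median 0.00). Srebf2 lay at 272, 232 and 257 CPM in WT and 198, 191 and 173 CPM in KO, with each KO library below each WT library (-0.44 ± 0.09, edgeR adjusted p = 0.0380). The WT libraries of Srebf2 had the order of the macrophage marker sums (replicate 1, then 3, then 2), whose part in the fall was not tested. Srebf1 lay at 121, 132 and 122 CPM and 139.6, 152 and 127 CPM and overlapped (0.16 ± 0.09, edgeR adjusted p = 0.250). Scap lay at 123, 129 and 109.6 CPM and 114, 131 and 117 CPM, which overlapped (0.00 ± 0.09). Insig1 lay at 30.1, 24.2 and 27.2 CPM in WT and 26.8, 22.4 and 20.1 CPM in KO, also overlapping (-0.23 ± 0.14). Insig2 lay at 14.97, 12.8 and 14.7 CPM and 17.4, 15.3 and 15.1 CPM, with a narrow gap between the groups (0.17 ± 0.12).

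In the LXR group Mylip rose and Nr1h3 fell (33.3%, against 11.9% of all genes, median 0.04 over 6). Mylip lay at 135, 192 and 158 CPM in WT and 232, 239 and 247 CPM in KO, each KO library above each WT library (0.57 ± 0.13, edgeR adjusted p = 0.0405). The WT libraries of Mylip had the order of the NK marker sums (5404, 9199 and 5654 CPM in WT replicates 1 to 3), whose part in the rise was not tested. Nr1h3 lay at 156, 40.2 and 86.7 CPM in WT and 33.5, 20.4 and 30.2 CPM in KO (-1.75 ± 0.44, edgeR adjusted p = 0.0472). The WT libraries of Nr1h3 were spread over a wide range, and the lowest of them, WT replicate 2, was close to KO replicate 1. Red pulp macrophages express LXRα, and their 12 markers ordered the libraries much as Nr1h3 did, with sums of 8787, 2119 and 5226 CPM in WT and 1844, 956 and 1462 CPM in KO. All 12 had negative log2 fold changes (median -2.02), 8 passed as lower, and none was at 0; Spic, which these macrophages need, lay at 202, 48.7 and 146 CPM in WT and 41.5, 15.97 and 24.3 CPM in KO. Their part in the fall of Nr1h3 was not tested. Nr1h3 did not pass with limma-voom (adjusted p = 0.0586) or without KO replicate 1 (edgeR adjusted p = 0.0561). Nr1h2 lay at 242, 290.2 and 268 CPM and 284, 307 and 274 CPM and did not pass (0.11 ± 0.10, edgeR adjusted p = 0.430). The efflux genes Abca1 (0.03) and Abcg1 (-0.05), and Lpcat3 (0.05), did not pass.

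Sterol transport and storage genes gave no call in KO cells among 4 tested (11.9% of all genes were called, median of the group -0.10). No member of the group had an unadjusted p under 0.05 by edgeR, nor did DESeq2 call any. Npc2 had the smallest adjusted p of the group, at 296, 219 and 243 CPM in WT and 234, 193 and 194 CPM in KO, which overlapped (-0.29 ± 0.13, edgeR adjusted p = 0.162). Npc1 lay at 125, 132 and 122 CPM and 115, 142 and 129 CPM (0.03 ± 0.09). Stard4 lay at 18.2, 18.2 and 19.1 CPM and 20.1, 19.9 and 20.6 CPM, slightly apart (0.12 ± 0.09). Soat1 had a log2 fold change of -0.22 with overlapping groups. Per kilobase of exon the highest WT levels of the members were those of Nr1h2 (79.5 CPM per kb), Acly (51.9), Mylip (49.95) and Npc2 (46.4).

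The wider pathway list had 1 of 32 genes higher and 3 lower in KO cells (12.5%, against 11.9% of all genes). Gramd1a lay at 287, 349.8 and 322 CPM in WT and 428, 487 and 408 CPM in KO (0.46 ± 0.11, edgeR adjusted p = 0.0431). Lrp1, a receptor of lipoproteins and many other ligands, lay at 379, 204 and 306 CPM and 132, 119 and 156 CPM (-1.13 ± 0.22, edgeR adjusted p = 0.0327). Scarb1, the receptor of high-density lipoprotein, lay at 136, 84.01 and 114 CPM and 74.02, 45.3 and 50.99 CPM (-0.97 ± 0.23, edgeR adjusted p = 0.0418). Pltp lay at 184, 98.3 and 125 CPM and 75.9, 66.7 and 57.4 CPM (-1.03 ± 0.22, edgeR adjusted p = 0.0382). The 3 lower genes were highest in WT replicate 1 and lowest among the WT libraries in replicate 2, the order that the macrophage markers also had, and the part of those cells was not tested. The WT libraries of Gramd1a had the order of the NK marker sums (5404, 9199 and 5654 CPM in WT replicates 1 to 3), whose part in its rise was not tested. All 4 calls were lost on leaving out WT replicate 1, WT replicate 3, KO replicate 2 or KO replicate 3. Gramd1a came to -0.35 on scaling to NK markers, or 0.47 relative to the median gene, which takes that scaling out again.

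Both experiments were set side by side for these genes. Of 39 pairs tested in both, 15 had log2 fold changes of the same sign, and among the 17 pairs of cholesterol synthesis genes 6 had. There were 17 pairs called with BIX and not in KO, 3 called in KO and not with BIX (ACAT2, FADS2 and SCD with Scd2) and 15 called in neither. The 4 pairs called in both split evenly by direction. ELOVL6 was higher in both, at 0.27 ± 0.06 with BIX and 0.54 ± 0.12 in KO, and NR1H3 was lower in both, at -0.74 ± 0.16 and -1.75 ± 0.44. SREBF2 was higher with BIX (0.33 ± 0.06) and lower in KO (-0.44 ± 0.09), and MYLIP was lower with BIX (-0.55 ± 0.11) and higher in KO (0.57 ± 0.13), with the KO value of MYLIP and that of ELOVL6 below 0 on scaling to NK markers. Of the wider list, PLTP was higher with BIX and lower in KO, and GRAMD1A lower with BIX and higher in KO. The difference between the experiments was not tested, since they differ in species, in cells and in the way EHMT2 was removed or inhibited, and a call in one without a call in the other does not show that the genes respond differently.

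**Figure D4:**
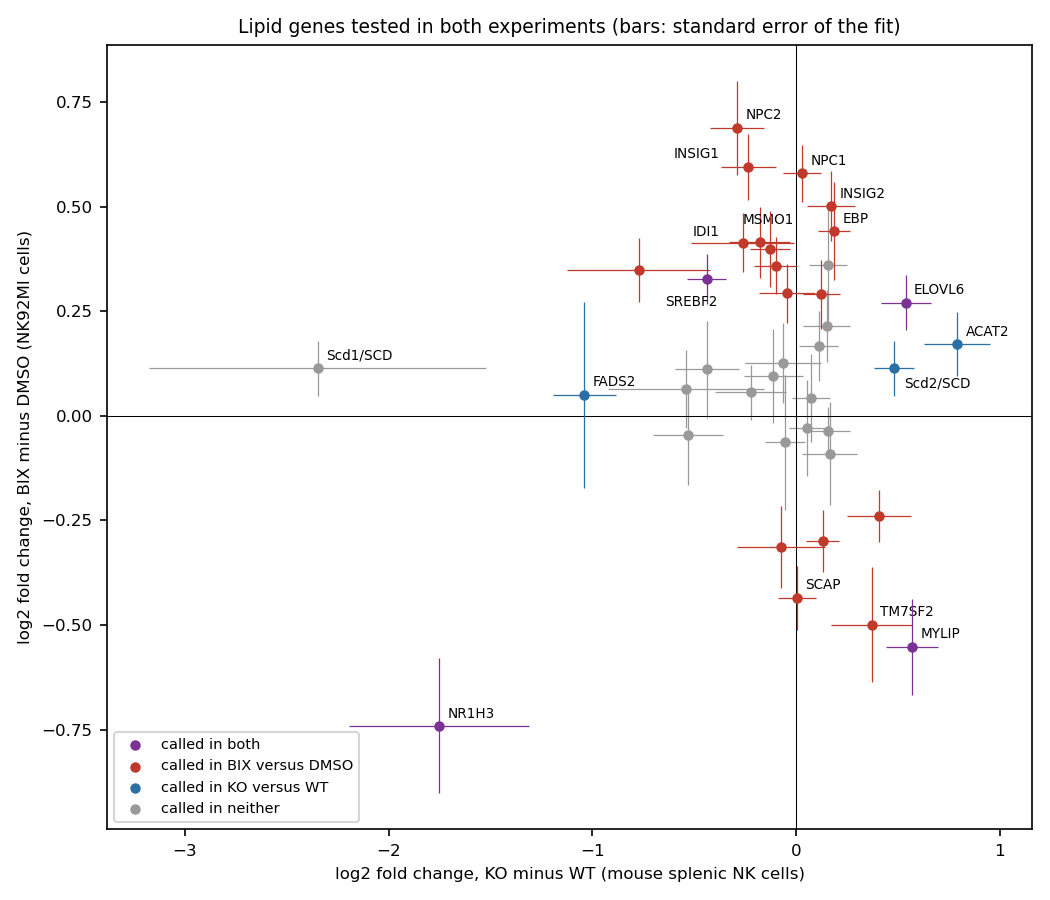
Each point is 1 of the 39 pairs tested in both experiments, with the log2 fold change of KO minus WT in mouse splenic NK cells on the x axis and of BIX minus DMSO in NK92MI cells on the y axis; bars are standard errors of the fit and colours give where the pair was called. SREBF2 lies in the upper left, MYLIP in the lower right, ELOVL6 in the upper right and NR1H3 in the lower left quadrant; scaled to NK markers, the KO values of MYLIP and ELOVL6 are below 0.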

How the data were processed

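RNA was measured by poly(A) RNA-seq (NEBNext Ultra) in 3 WT and 3 KO mouse NK cell samples and in 3 BIX and 3 DMSO NK92MI samples. The authors trimmed reads with fastp 0.23.4, aligned them with STAR 2.7.11b (at most 2 mismatches) to GRCm38 or GRCh38 and counted them per gene with HTSeq 2.0.3; the deposited values are raw counts per gene symbol. The annotation release and strand setting are not given in the sources used here. The DMSO columns carry no sample number and were used as libraries a to c, and no columns were left unused. H3K9me2 profiles of the study were not analysed here.

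Each species was fitted apart in R 4.3.3 with edgeR 4.0.16 (TMM, filterByExpr, quasi-likelihood test, two-sided) over all genes, with Benjamini-Hochberg adjustment over all genes tested and a threshold of 0.05 without a fold minimum. DESeq2 1.42.0, which the study used, and limma-voom (limma 3.58.1) were alternatives, beside other scalings, no filter, the replicate number as a block, and each library left out. CPM is the count scaled by library size and TMM factor, and the error of a log2 fold change is the standard error of the fit. The fit was tested on simulated data. The biological coefficient of variation was 18.2% in mouse and 7.55% in NK92MI. Counting error is larger for genes with few counts, and its part was not separated from the spread between libraries.

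Members, role groups, marker lists, thresholds and the genes to be named were chosen with earlier results of these data known. The named genes are the 15 members with the smallest adjusted p in each comparison, the smallest of each role group, members whose call or direction differs between comparisons, the SREBP and LXR genes, and called genes of a wider pathway list, of which some are counted but not reported here. Exon lengths and overlaps come from GENCODE v44 and M21, which may not be the release the authors used. Promoters come from RefSeq (GRCh38.p14); those printed are that of the member with the sterol regulatory element and those of the 2 others with the smallest adjusted p among members with a usable window, one outside chromosomes 8 and 18 that holds no exon of a protein-coding gene; NPC1, INSIG1, NPC2, INSIG2, SCAP, HMGCS1 and MSMO1, with smaller adjusted p than MYLIP, had none.

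Same-numbered WT and KO replicates did not deviate together throughout (correlations of deviations from group means 0.354, 0.486 and -0.205), so the numbers were not taken to pair the samples.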

Additional observations from a re-analysis of the deposited data

How the results depend on the processing

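The counts of members called in NK92MI kept within 1.5 times of 14 higher and 7 lower under other size factors, library totals, no filter, DESeq2 and limma-voom, and on leaving out each library (13 to 17 higher, 6 to 8 lower); at the thresholds of the study edgeR and DESeq2 each gave 4 higher and 2 lower. In KO versus WT the thresholds of the study left 0 higher and 0 lower with edgeR and 3 higher and 1 lower with DESeq2, and leaving out a library gave 0 to 5 higher and 0 to 6 lower; the cause was not tested. The labels do not say whether the replicate numbers of WT and KO pair the samples. Correlations of same-numbered replicates (0.354, 0.486 and -0.205) do not settle it, and the main fit did not treat them as pairs. With the numbers as a block the members called lower came to 6. No paired analysis was possible because the DMSO columns carry no replicate number, for BIX versus DMSO.

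Scaling to the NK markers, which were higher in KO, shifted all genes down by construction (median gene -0.82), with 0 members higher and 32 lower. The role group medians became -0.96 (mevalonate), -0.89 (squalene to cholesterol), -0.82 (SREBP control), -0.66 (fatty acids), -0.95 (transport) and -0.80 (LXR). Values that turned below 0 were Acat2 -0.078, Lss -0.68, Tm7sf2 -0.50, Nsdhl -0.75, Ebp -0.65, Dhcr7 -0.71, Srebf1 -0.67, Scap -0.82, Insig2 -0.68, Acly -0.68, Acaca -0.65, Fasn -0.41, Elovl6 -0.29, Scd2 -0.35, Npc1 -0.80, Stard4 -0.71, Nr1h2 -0.70, Abca1 -0.82, Mylip -0.22, Lpcat3 -0.78 and Gramd1a -0.35. Scap, at 0.00, also turned with the size factors of DESeq2 (-0.00722) and with DESeq2 (-0.00399).

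On leaving out each library, medians in KO ranged from -0.24 to -0.084 (mevalonate), -0.12 to 0.070 (squalene to cholesterol), -0.064 to 0.057 (SREBP control), 0.089 to 0.26 (fatty acids), -0.15 to -0.064 (transport) and -0.027 to 0.10 (LXR), and with BIX from 0.075 to 0.21 (mevalonate), 0.22 to 0.28 (squalene to cholesterol), 0.33 to 0.44 (SREBP control), -0.047 to 0.067 (fatty acids), 0.37 to 0.48 (transport) and -0.22 to -0.030 (LXR). Among uncalled members the sign turned for Mvk (-0.235 to 0.0016), Mvd (-0.19 to 0.13), Fdft1 (-0.13 to 0.063), Hsd17b7 (-0.19 to 0.070), Scap (-0.064 to 0.057), Npc1 (-0.043 to 0.098), Abca1 (-0.060 to 0.14), Abcg1 (-0.13 to 0.041), PMVK (-0.18 to 0.087), FDPS (-0.040 to 0.17), NSDHL (-0.066 to 0.11), ACACA (-0.26 to 0.067), FADS2 (-0.10 to 0.27), ABCG1 (-0.22 to 0.063) and LPCAT3 (-0.084 to 0.031). No called gene changed direction on leaving out a library. With 3 libraries a group, the spread between libraries and counting error both limit the results, and their parts were not separated. Counting error is larger for genes with few counts, such as NR1H3 in NK92MI (66 to 128 counts a library).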
